A study of Mus musculus with 4 samples.

Results

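The genes described here encode the subunits of the proteasome, with its activators and the chaperones that carry a Psmd symbol. They were chosen by name: every symbol that is Psma, Psmb, Psmc, Psmd or Psme followed by a number was taken, and Psmb8, Psmb9 and symbols with -ps were left out. This gave 40 of the 16308 genes measured. Of these, 16 form the core particle (Psma1 to Psma8, Psmb1 to Psmb7 and Psmb10), 17 form the cap (Psmc1 to Psmc6 and the Psmd genes other than Psmd5, Psmd9 and Psmd10), 3 are assembly chaperones of the cap base (Psmd5, Psmd9 and Psmd10), and 4 are activators (Psme1 to Psme4).

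The proteasome is the protease that degrades proteins tagged with ubiquitin. Its barrel-shaped core is closed by rings of alpha subunits and carries its active sites on the beta subunits Psmb5, Psmb6 and Psmb7, while the cap binds, unfolds and feeds in the tagged proteins with the help of the Psmc ATPases. Interferon induces beta subunits that replace the constitutive active sites, among them Psmb10, which takes the place of Psmb7, and it induces the activator PA28 that Psme1 and Psme2 form together. This form of the proteasome favours peptides for presentation on MHC class I. Psme3 encodes the nuclear activator PA28 gamma and Psme4 the activator PA200.

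The data came from droplet-based single cell RNA sequencing of CD45+ cells, that is leukocytes, of the muscularis of the small intestine. The mice were 12 weeks old and had undergone intestinal manipulation, a surgical handling that inflames the gut muscle. There were 4 libraries, 1 per group: WT (C57BL/6J) at 24 h and at 72 h post-injury, and CCR2 KO (Ccr2-/-, strain B6.129S4-Ccr2tm1Ifc/J) at 24 h and at 72 h. CCR2 is the chemokine receptor that monocytes need to leave the bone marrow, so CCR2 KO mice were compared with WT mice to follow the contribution of recruited monocytes. The KO is constitutive and in all cells, and each library pooled several mice, so single mice cannot be told apart.

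The files held 5811 cells (1048 to 1774 per library), with 9736725 to 21206308 UMIs (unique molecular identifiers, 1 per captured transcript) per library. The median depth over all cells was lower in the CCR2 KO libraries, with 3281.5 and 4990.5 UMIs per cell against 12859 and 12427 in WT. Within the 2 largest cell classes described next it was higher in CCR2 KO. Monocyte and macrophage cells had 16228 and 17082 UMIs against 14647 and 14212 in WT, and neutrophils 2947 and 3413 against 2060 and 2431.5. The median share of mitochondrial UMIs per cell was 0.469 and 2.04% in CCR2 KO against 3.73 and 4.05% in WT. Any pair of libraries shared at most 1 cell barcode. In the monocyte and macrophage cells described next, Ccr2 had a level of 759 CPM (UMIs per 1000000 UMIs) in WT 24 h and 1061 CPM in WT 72 h, against 96.0 CPM in CCR2 KO 24 h and 87.2 CPM in CCR2 KO 72 h.

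Cells were assigned to a class by fixed marker genes, none of which is a proteasome gene. Of the 5811 cells, 5518 fell into 5 classes: a monocyte and macrophage (Mo/Mφ) class of 165 to 1294 cells per library, a neutrophil class of 190 to 1321 cells, a dendritic cell (DC) class, a class of T, NK and innate lymphoid cells (the lymphoid class), and a B cell class. A class was described in a library where it had at least 20 cells. Thus DCs (31, 45 and 57 cells) and lymphoid cells (95, 67 and 140 cells) could be described in all libraries but WT 24 h, and B cells only in CCR2 KO 24 h (34 cells). The names stand for the marker gate and no more. Values for the 4 libraries are given in 1 order throughout: WT and then CCR2 KO at 24 h, followed by WT and then CCR2 KO at 72 h. Where there are 3 values, as in DCs and lymphoid cells, WT at 24 h is missing.

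The annotation placed the 40 genes on 16 chromosomes of GRCm38. The promoters below are from RefSeq on GRCm38.p6. Psmb10, Psme1 and Psme2 are shown because they were called together, higher in interferon-high cells and lower in neutrophils at 72 h. The call in neutrophils did not hold under every alternative described below. Psmb5 and Psmb6 stand for the constitutive active sites. Each window runs from 250 bases before to 50 bases after the transcription start, 5′ to 3′ on the strand of the gene. The windows are chr8:105938343-105938642 on the minus strand for Psmb10, chr14:55578244-55578543 on the plus strand for Psme1 and chr14:55590972-55591271 on the minus strand for Psme2, which has 2 start entries of which 1 is shown. They are chr14:54617946-54618245 on the minus strand for Psmb5 and chr11:70525107-70525406 on the plus strand for Psmb6. Capitals mark a match, on either strand, to GAAANNGAA (interferon-stimulated response type) in Psmb10, Psme1 and Psme2, and to TGACNNNGC (antioxidant response type) in Psmb5 and Psmb6.
Psmb10: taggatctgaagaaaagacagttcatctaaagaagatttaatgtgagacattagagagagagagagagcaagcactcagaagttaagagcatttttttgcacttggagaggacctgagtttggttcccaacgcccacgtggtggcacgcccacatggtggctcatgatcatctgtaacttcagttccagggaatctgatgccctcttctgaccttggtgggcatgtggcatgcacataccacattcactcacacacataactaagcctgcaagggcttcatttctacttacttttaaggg
Psme1: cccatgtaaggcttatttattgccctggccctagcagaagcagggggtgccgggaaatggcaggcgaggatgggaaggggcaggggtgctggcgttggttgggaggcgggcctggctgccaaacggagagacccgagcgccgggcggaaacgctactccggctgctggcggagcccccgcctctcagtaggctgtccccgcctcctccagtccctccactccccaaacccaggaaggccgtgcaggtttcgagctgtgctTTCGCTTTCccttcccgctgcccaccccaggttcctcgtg
Psme2: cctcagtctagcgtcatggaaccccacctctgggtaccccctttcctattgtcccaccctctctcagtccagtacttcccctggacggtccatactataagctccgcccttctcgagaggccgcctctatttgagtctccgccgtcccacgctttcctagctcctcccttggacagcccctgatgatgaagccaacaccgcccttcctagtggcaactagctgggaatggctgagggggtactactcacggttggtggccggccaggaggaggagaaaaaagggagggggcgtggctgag
Psmb5: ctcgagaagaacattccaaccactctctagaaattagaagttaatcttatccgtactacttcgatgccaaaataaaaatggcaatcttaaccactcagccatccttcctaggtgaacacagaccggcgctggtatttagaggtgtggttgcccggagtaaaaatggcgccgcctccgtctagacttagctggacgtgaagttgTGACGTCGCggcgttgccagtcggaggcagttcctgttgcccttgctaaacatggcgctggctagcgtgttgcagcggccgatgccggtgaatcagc
Psmb6: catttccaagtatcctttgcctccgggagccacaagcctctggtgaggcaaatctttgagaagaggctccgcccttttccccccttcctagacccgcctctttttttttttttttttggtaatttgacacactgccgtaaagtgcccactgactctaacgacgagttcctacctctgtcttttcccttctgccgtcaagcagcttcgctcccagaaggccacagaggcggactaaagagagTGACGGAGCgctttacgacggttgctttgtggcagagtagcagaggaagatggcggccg

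GAAANNGAA had a match in Psme1, from base 11 after the start, and none in these windows of Psmb10 and Psme2. TGACNNNGC had a match from base -47 in Psmb5 and from base -9 in Psmb6. Over the 33 genes with a promoter entry, TGACNNNGC was found in 6 (Psmb5, Psmb6, Psmc6, Psmd9, Psmd12 and Psme4), that is 18.2%, against 14% of the promoters of all 27025 genes. GAAANNGAA was found in 6 (Psmb3, Psmb4, Psmc2, Psmd4, Psmd9 and Psme1), also 18.2%, against 9.76% of all promoters. The STAT type TTCNNNGAA was found in Psmd2 alone, which is 3.03% of these genes against 9.55% of all. CCAAT (NF-Y type) was found in 12 of the 33 genes, or 36.4%, against 41.1% of all. These are matches of letters and show no binding. Psma8, Psmb1, Psmb2, Psmb7, Psmc3, Psmd3 and Psmd7 had no entry.

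Over all cells, 39 of the 40 genes had a level of at least 24.9 CPM. A 3' library counts 1 tag per molecule whatever the length of the gene, so these are shares of tags and not of nucleotides. Among core subunits, the alpha subunit Psma7 had 372 CPM and Psma3 338 CPM, and the active site subunits had 245 CPM (Psmb5), 242 CPM (Psmb6) and 128 CPM (Psmb7). The inducible Psmb10 had 201 CPM. Psma8, the germline form of an alpha subunit, had 1.66 CPM, or 96 UMIs in all, and was left out of most tests for its low level. The cap ATPases Psmc1 to Psmc6 lay between 83.9 and 127 CPM. The other cap subunits lay between 95.4 CPM (Psmd1, a scaffold of the cap base) and 221 CPM (Psmd8, of the lid), and the chaperones Psmd5, Psmd9 and Psmd10 between 24.9 and 36.5 CPM. Of the activators, Psme1 had 344 CPM and Psme2 281 CPM, whereas Psme3 had 58.1 CPM and Psme4 47.0 CPM. Psme2 has a near-identical copy, Psme2b, which was counted as a gene of its own at 32.5 CPM. Reads may have been split between these genes, so that the level of Psme2 is uncertain. In the annotation, 8 of the 40 genes overlap a gene on the same strand and 16 overlap one on the other strand, among them Psmb10 (Gm16156) and Psme1 (Emc9). Whether the counting used strand is not given in the sources used here.

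Summed over the 40 genes, proteasome transcripts took a larger share of the UMIs in Mo/Mφ cells than in neutrophils in each library. In the Mo/Mφ class their summed level was 8595 CPM in WT 24 h (95% interval 8554 to 8636), 7986 CPM in CCR2 KO 24 h (7897 to 8076), 4826 CPM in WT 72 h (4789 to 4863) and 6537 CPM in CCR2 KO 72 h (6446 to 6630). In the neutrophil class it was 1974 CPM (1874 to 2077), 2208 CPM (2163 to 2254), 3680 CPM (3510 to 3857) and 3586 CPM (3508 to 3666) in the same order. The lowest Mo/Mφ value, that of WT 72 h, thus lay above the highest neutrophil value, that of the neutrophils of the same library. All intervals on levels and ratios cover counting error only and not the variation between mice. A summed level is a share of the UMIs of a class, so it does not give the number of transcripts per cell.

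DCs and lymphoid cells lay within the range that the Mo/Mφ class spanned over all libraries, but differed from it within libraries. The summed level was 8437, 7866 and 8208 CPM in the DCs of the 3 libraries. In the Mo/Mφ class of the same libraries it was 7986, 4826 and 6537 CPM, lower than in DCs each time. Lymphoid cells of these libraries had 7205, 6513 and 6501 CPM. They were below the Mo/Mφ class in CCR2 KO 24 h, above it in WT 72 h and close to it in CCR2 KO 72 h. B cells of CCR2 KO 24 h had 5729 CPM (5425 to 6045). The composition also differed between classes. Activators made up 16.8, 16.1 and 17.6% of the proteasome UMIs in DCs, against 10.5 to 11% in the Mo/Mφ class of the same libraries. In lymphoid cells they made up 14.9, 11.4 and 15.3%. In neutrophils, the activator share was 16.7% in WT 24 h and 18.7% in CCR2 KO 24 h, but 8.56% in WT 72 h and 9.63% in CCR2 KO 72 h. The plot of summed levels by class and library shows that activators followed another order than core and cap.

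**Figure D1:**
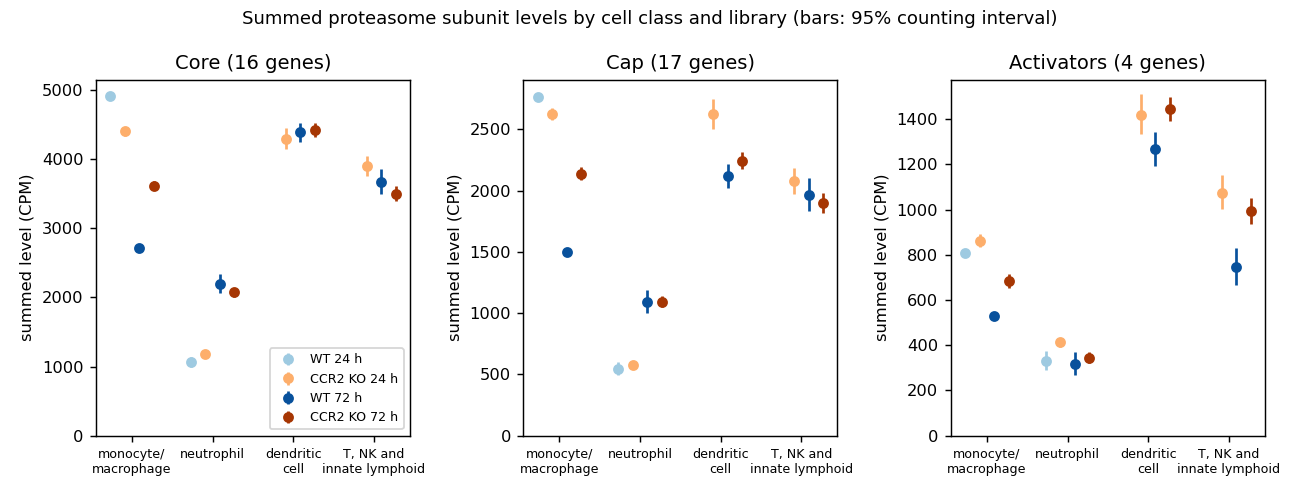
Summed level (CPM) of core, cap and activator genes in each class and library, with 95% intervals of counting error. In the Mo/Mφ class the core sum ranged from 2717 CPM in WT 72 h to 4915 CPM in WT 24 h, and in neutrophils from 1066 CPM in WT 24 h to 2197 CPM in WT 72 h.

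To ask which subunits differed between the main classes, UMIs were summed per class and library, and the classes were compared over the 4 libraries with edgeR's quasi-likelihood test, with the library as a block and Benjamini-Hochberg adjustment over all 10638 genes tested. Of the 40 genes, 39 could be tested. Of these, 32 were higher in the Mo/Mφ class than in neutrophils, and 0 were lower. Of all genes tested, 35.3% were called higher and 27.4% lower. Higher were 13 of 15 core genes, 15 of 17 cap genes, 1 of 3 chaperones (Psmd9) and 3 of 4 activators. The median log2 fold change was 0.85 over the 39 genes and 0.26 over all genes tested. None of the 39 was lower at an unadjusted p under 0.05, and DESeq2 also called 0 lower. In raw CPM, 33 of the 40 genes were higher in the Mo/Mφ class in all 4 libraries and 0 were lower in all 4, against 48.3% and 19.9% of all genes tested.

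The largest difference was that of Psmd1, the scaffold of the cap base. It had 138, 160, 61.7 and 111 CPM in the Mo/Mφ class of the 4 libraries, and 8.08, 12.0, 21.0 and 23.6 CPM in neutrophils. The groups did not overlap, and the log2 fold change was 2.34 (SE 0.29, adjusted p = 8.23e-06). Next came Psmd6 of the lid (log2 fold change 1.69), the alpha subunit Psma5 (1.64), Psmd2, the other scaffold of the base (1.63), and the alpha subunit Psma4 (1.56). Psma4 had 325, 267, 187 and 259 CPM in the Mo/Mφ class and 49.8, 39.8, 90.3 and 77.0 CPM in neutrophils, which did not overlap either. Of the active site subunits, Psmb6 (1.36, adjusted p = 0.000379) and Psmb7 (0.75, adjusted p = 0.0121) were higher in the Mo/Mφ class, as was the inducible Psmb10 (0.69, adjusted p = 0.0160).

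Some subunits stood apart from this pattern. The active site subunit Psmb5 had 327, 301, 153 and 210 CPM in the Mo/Mφ class and 83.5, 121, 235 and 201 CPM in neutrophils, so that neutrophils were higher in WT 72 h and lower in the other libraries. Its log2 fold change was 0.17 (SE 0.26, adjusted p = 0.587). Psmd4, a ubiquitin receptor of the cap, had 171, 140, 103 and 132 CPM in the Mo/Mφ class and 67.4, 70.1, 147 and 132 CPM in neutrophils. Its log2 fold change was -0.06 (SE 0.21, adjusted p = 0.803), and it was positive without TMM scaling. Psme2 had a log2 fold change of 0.07 (SE 0.20), whereas its partner Psme1 had 0.82 (SE 0.25, adjusted p = 0.0103) and was called. Psme3 (0.84) and Psme4 (0.64) were called as well. Psmd10 (-0.41), Psmb3 (0.26), Psmd11 (0.36) and Psmd5 (0.82) did not pass the test. With the scaling by total UMIs alone, the median over all genes was 0.77, 36 of the 39 genes were higher and 0 lower, against 46.7% and 18% of all genes.

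**Figure D2:**
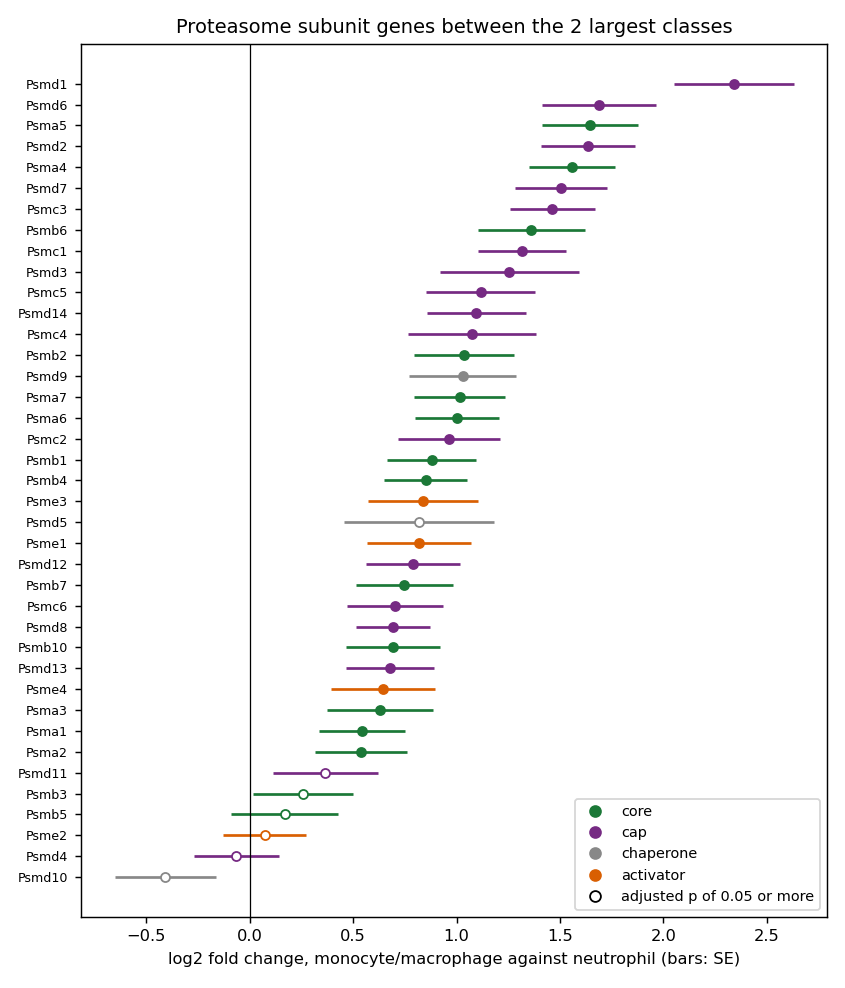
Log2 fold change of each proteasome gene between the Mo/Mφ and the neutrophil class, with its SE, from edgeR over 4 libraries. Of the 39 genes tested, 32 were called higher in the Mo/Mφ class, with Psmd1 at 2.34, and 0 lower.

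Other genes of the pathway were compared in the same fit, from lists of 35 genes, of which 32 were measured. Of 31 of these genes tested, 12 were higher and 6 lower in the Mo/Mφ class, against the 35.3% and 27.4% of all genes given above. Of 5 further assembly chaperones, 4 were higher: Psmg2 (1.87), Psmg4 (1.64), Psmg3 (1.09) and Pomp (0.98), the maturation factor of the core. Of 11 other proteasome-bound proteins, 4 were higher and 1 lower. Among those higher were the deubiquitinase Usp14 (2.16) and the shuttle factors Ubqln2 (1.2) and Rad23b (1.16), and the small cap subunit Sem1 was lower (-0.76). Of 5 genes of ubiquitin supply, 2 were higher and 2 lower. Among them Rps27a (1.43), which encodes ubiquitin fused to a ribosomal protein, was higher, and the polyubiquitin gene Ubb (-1.11) was lower. Of p97 and its cofactors, 1 of 5 was higher, Vcp itself (1.74), the ATPase that extracts proteins for degradation. Of 5 genes listed as regulators, the endoplasmic reticulum chaperone Hspa5 (1.06) was higher. Nfe2l2 (-2.06), Ngly1 (-1.27) and Nrf1 (-0.87) were lower. Here Nrf1 is the gene of nuclear respiratory factor 1 and not Nfe2l1, which is a separate gene of the list.

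Compared with the lymphoid class, the Mo/Mφ class differed in few subunits. Of 39 genes tested, 4 were higher in the Mo/Mφ class and 0 were lower, while 19.9% of all genes were called higher and 16.4% lower. The share of proteasome genes called was therefore below that of all genes. The 4 genes were the activator Psme4 (log2 fold change 1.19, adjusted p = 0.00585), Psmd1 (0.84, adjusted p = 0.0405), Psma6 (0.77, adjusted p = 0.0161) and Psmd2 (0.72, adjusted p = 0.0328). Psme4 had 43.1, 53.0 and 55.5 CPM in the Mo/Mφ class of the libraries other than WT 24 h, and 17.7, 27.4 and 32.8 CPM in lymphoid cells, which did not overlap. The other 3 called genes were higher in the Mo/Mφ class of both CCR2 KO libraries but not of WT 72 h. Psmd1 had 160, 61.7 and 111 CPM there and 73.7, 77.8 and 67.4 CPM in lymphoid cells. Psma6 had 275, 155 and 219 CPM against 146, 158 and 149 CPM, and Psmd2 189, 112 and 184 CPM against 116, 123 and 112 CPM. In raw CPM, 6 of the 40 genes were higher and 7 lower in the Mo/Mφ class in all 3 libraries, against 26.5% and 38% of all genes tested. The 7 were Psmb1, Psmb3, Psmb10, Psmd4, Psmd9, Psme1 and Psme2. Without CCR2 KO 24 h or without CCR2 KO 72 h, Psme4 alone was called. Without TMM scaling, Psme4 was higher and Psmb10 and Psme2 were lower in the Mo/Mφ class. DESeq2 called 5 higher and 0 lower. Of the 31 other pathway genes tested, 6 were higher in the Mo/Mφ class than in lymphoid cells and 1 was lower, Ubb (-0.78). The 19.9% and 16.4% of all genes apply here too, so the share called higher was near that of all genes. Those higher were Nfe2l2 (2.25), Ddi2 (1.86), Hspa5 (1.02), Sem1 (0.91), Nfe2l1 (0.78) and Vcp (0.61). Nfe2l1 encodes the factor that raises proteasome genes when the proteasome is impaired, and Ddi2 the protease that activates it.

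DCs differed from the Mo/Mφ class in the PA28 genes. Psme1 had 615, 744 and 844 CPM in the DCs of the 3 libraries, and 353, 360, 277 and 327 CPM in the Mo/Mφ class of the 4 libraries. Psme2 had 690, 443 and 501 CPM in DCs, and 324, 384, 157 and 226 CPM in the Mo/Mφ class. Neither gene overlapped between the classes. In lymphoid cells Psme1 ranged from 396 to 546 CPM and Psme2 from 277 to 475 CPM. Both were above the Mo/Mφ class in each of these 3 libraries in raw CPM, so this trait was not particular to DCs. The log2 fold change was 1.22 for Psme1 (SE 0.27, adjusted p = 0.00557) and 1.16 for Psme2 (SE 0.22, adjusted p = 0.00179). These were the 2 genes called higher of 39 tested, and 0 were called lower, against 6.88% and 9.94% of all genes tested. DESeq2 called the same 2. In raw CPM, 17 of the 40 genes were higher and 2 lower in DCs in all 3 libraries, against 21.7% and 26.5% of all genes tested. Without the WT 72 h library 0 were called, with log2 fold changes of 1.08 and 0.99, and without CCR2 KO 72 h Psme2 alone was called. Psmb10 had 210, 183 and 166 CPM in DCs and 215, 171 and 173 CPM in the Mo/Mφ class of the same libraries, so that the inducible active site did not follow the PA28 genes. Of the 31 other pathway genes tested, 1 was higher in DCs, Pomp (0.78), and 1 was lower, Nfe2l2 (-1.08), against the same shares of all genes called.

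The lymphoid class had the largest Psmb10 share. Of the UMIs of Psmb7 and Psmb10 together, Psmb10 made up 75.2% (95% exact binomial interval 70.2 to 79.8%) in the lymphoid cells of CCR2 KO 24 h, 70.9% (63.3 to 77.7%) in those of WT 72 h and 77.3% (73.1 to 81.1%) in those of CCR2 KO 72 h. In the Mo/Mφ class this share was 60.7, 58.5, 65.7 and 54.4% in the 4 libraries, with no interval wider than 51.2 to 57.6%. In DCs it was 59.6% (53.2 to 65.8%), 51.9% (46.2 to 57.6%) and 46.0% (42.2 to 49.8%). Neutrophils had 67.4% (56.5 to 77.2%) in WT 24 h and 68.8% (65.1 to 72.3%) in CCR2 KO 24 h, and 55.2% (42.6 to 67.4%) and 48.7% (43.2 to 54.1%) at 72 h. Thus the intervals of the lymphoid cells lay above those of the Mo/Mφ class in CCR2 KO 24 h and CCR2 KO 72 h and overlapped them in WT 72 h. The lymphoid intervals overlapped those of neutrophils in CCR2 KO 24 h and WT 72 h and lay above in CCR2 KO 72 h. In neutrophils the interval of CCR2 KO 72 h lay below that of CCR2 KO 24 h, and those of WT overlapped between the times.

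The inducible subunits were also higher in cells with an interferon response. Within the Mo/Mφ class, cells with at least 20 UMIs per 10000 from 8 interferon-induced genes (Ifit1, Ifit2, Ifit3, Rsad2, Isg15, Usp18, Cxcl10 and Oasl1) and a UMI of at least 3 of them were called interferon-high. These were 132 cells in WT 24 h, 19 in CCR2 KO 24 h and 25 in WT 72 h. The 2 cells of CCR2 KO 72 h were too few and that library was dropped from the test. The score is a range and not a cell type, since 256, 35 and 53 cells of these libraries lay within 2-fold of the limit. Psmb10 had 365 CPM in interferon-high against 248 CPM in the other Mo/Mφ cells of WT 24 h, 288 against 209 CPM in CCR2 KO 24 h and 317 against 166 CPM in WT 72 h. Psme1 had 494 against 337, 542 against 344 and 366 against 275 CPM in the same order. Psme2 had 410 against 315, 592 against 366 and 202 against 156 CPM. Each of these genes was higher in the interferon-high cells of each of the 3 libraries.

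The edgeR test called these 3 genes higher, with log2 fold changes of 0.75 for Psmb10 (adjusted p = 0.00468), 0.64 for Psme1 (adjusted p = 0.00701) and 0.58 for Psme2 (adjusted p = 0.0209). They were 3 of 39 genes tested, against 3.35% of all genes called higher, and 0 were called lower, against 0.27% of all genes. DESeq2 called the same 3 higher and 0 lower. Psmb7, the constitutive partner of Psmb10, had 186 against 166, 132 against 154 and 51.1 against 90.3 CPM and did not pass the test. Psma5 had a log2 fold change of 0.49 (adjusted p = 0.0806). Among the other genes described in every contrast, the 11 that were not called lay between -0.17 and 0.20. Without WT 24 h Psmb10 alone was called, and without WT 72 h Psme1 alone. With cells thinned to a depth of 1000 UMIs 0 were called, with Psmb10 at 0.62, Psme1 at 0.13 and Psme2 at 0.67.

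**Figure D3:**
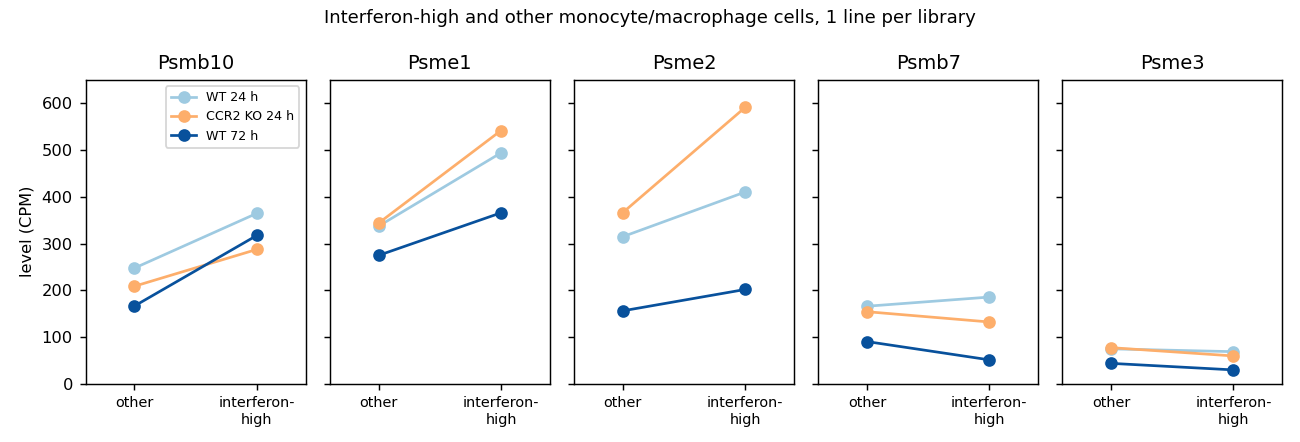
Level (CPM) of Psmb10, Psme1 and Psme2, and of Psmb7 and Psme3 for comparison, in interferon-high and other Mo/Mφ cells, with 1 line per library and no CCR2 KO 72 h, which had 2 such cells. Psmb10, Psme1 and Psme2 were higher in interferon-high cells on each of the 3 lines, and Psmb7 on that of WT 24 h only.

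Dividing Mo/Mφ cells, those with at least 10 UMIs per 10000 from 7 cell division genes and a UMI of at least 3 of them, could be compared in WT 72 h (34 cells) and CCR2 KO 72 h (53 cells). The edgeR test called 0 of 39 proteasome genes higher and 0 lower, against 5.77% and 2.2% of all genes. At an unadjusted p under 0.05, 2 genes were higher and 0 were lower, and DESeq2 called 0. The summed level was 5924 CPM (5761 to 6089) in the dividing cells of WT 72 h and 6681 CPM (6536 to 6829) in those of CCR2 KO 72 h. The other Mo/Mφ cells had 4753 CPM (4715 to 4791) in WT 72 h and 6441 CPM (6324 to 6559) in CCR2 KO 72 h. Of the 39 genes, 30 had a positive and 9 a negative log2 fold change. The median was 0.10, against -0.02 over all genes. Of the 31 other pathway genes tested, 2 were higher and 1 lower. Those higher were Uchl5 (1.05), a deubiquitinase of the cap, and the nuclear respiratory factor gene Nrf1 (0.96).

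Between 24 h and 72 h, the proteasome genes of the Mo/Mφ class were lower in both genotypes. In WT all 39 genes with at least 20 CPM in either library were lower at 72 h, 30 of them by more than 1.5-fold, and 0 were higher by that fold, against 16.9% and 16% of all genes. The median log2 ratio was -0.91, while that of all genes was -0.03. In CCR2 KO, 33 of 39 genes were lower, 7 of them by more than 1.5-fold, against 11% of all genes, and 0 were higher by that fold, against 22.1%. The median log2 ratio was -0.27, with 0.13 over all genes. These ratios compare 1 library with 1 other and have no replicate check.

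The lowest ratios in WT were those of the cap lid subunits Psmd3 and Psmd12. Psmd3 went from 146 to 58.9 CPM (log2 ratio -1.31) and Psmd12 from 139 to 61.8 CPM (-1.17). In CCR2 KO, Psmd3 went from 140 to 89.2 CPM (-0.65) and Psmd12 from 128 to 72.9 CPM (-0.81). Psmd1 went from 138 to 61.7 CPM in WT and from 160 to 111 CPM in CCR2 KO. The ratios nearest to equal in WT were those of Psme4 (-0.14), the chaperone Psmd9 (-0.25) and Psme1 (-0.35). In CCR2 KO the lid subunit Psmd13 had 138 CPM at 24 h and 194 CPM at 72 h (0.49), and Psme4 43.1 and 55.5 CPM (0.36), so these genes were among the 6 that were higher there. The scaling changed the sign of 4 genes in CCR2 KO and of 0 in WT.

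A test of time within the class, with genotype as the block, was added after the data had been seen. Time is replicated there only over the genotypes, which leaves 1 residual degree of freedom beside the spread shared over genes. All 40 genes had a negative log2 fold change, and edgeR called 10 lower (Psmd12, Psmd3, Psme2, Psmc2, Psmc4, Psmd1, Psmd11, Psmb2, Psmb6 and Psmc5) and 0 higher, against 4.35% and 6.81% of 11049 genes. Psmd12 had the lowest value (-1.14, SE 0.23, adjusted p = 0.0229). Of the 40 genes, 22 were lower and 0 were higher at an unadjusted p under 0.05, and DESeq2 called 11 lower and 0 higher. Without TMM scaling 4 were lower and 0 higher, against 2.98% and 10.2% of all genes. In cells with at most 5% mitochondrial UMIs 0 were called, and after thinning to 1000 UMIs Psmc2 alone.

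At 72 h, the Mo/Mφ cells of CCR2 KO had a higher level than those of WT. All 39 genes were higher in CCR2 KO, 12 by more than 1.5-fold, against 16.4% of all genes, and 0 were lower by that fold, against 8.4%. The median log2 ratio was 0.46, with 0.12 over all genes. The largest ratios were those of Psmd13 (106 CPM in WT and 194 CPM in CCR2 KO, log2 ratio 0.87, counting interval 0.73 to 1.01), Psmd1 (61.7 and 111 CPM, 0.85) and Psme3 (43.2 and 74.5 CPM, 0.79). Psmb10 (0.02), Psme4 (0.07) and Psmb1 (0.10) were nearest to equal, with intervals that include 0, and with TMM scaling Psmb10 and Psme4 were lower. At 24 h the genotypes were closer. Of 39 genes, 10 were higher and 29 lower in CCR2 KO, and 0 passed 1.5-fold in either direction, against 5.87% and 5.3% of all genes. Psme4 was lowest (-0.43) and Psme2 highest (0.25) there. The genotype comparison has no replicates. Other measures of the class differed between the genotypes at 72 h as well. Its 10 Mo/Mφ markers summed to 13019 CPM in WT 72 h and 6660 CPM in CCR2 KO 72 h, and the 9 DC markers, all detected in both, to 109 and 349 CPM, against 3498 and 2150 CPM in the DCs. The part of DC transcripts in the result was not tested. Dividing cells were 34 of 926 in WT and 53 of 165 in CCR2 KO, and without them the summed proteasome level was 4753 CPM (4715 to 4791) in WT 72 h and 6441 CPM (6324 to 6559) in CCR2 KO 72 h.

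The Mo/Mφ class was not made of the same cells in each library. When its cells were assigned to states by genes that the study had chosen on such cells, 408 cells of WT 24 h but 81 of WT 72 h were in the Arg1 state, and 73 but 480 in the Cd206 state (the macrophage mannose receptor, Mrc1). No state was assigned to 531, 76, 239 and 62 cells of the 4 libraries, whose summed proteasome level was 8628, 7850, 5243 and 6863 CPM. Within the Arg1 state the summed proteasome level was 8674 CPM in WT 24 h, 7625 CPM in CCR2 KO 24 h, 6210 CPM in WT 72 h and 6988 CPM in CCR2 KO 72 h. Within the Cd206 state it was 7631 CPM in WT 24 h, 4319 CPM in WT 72 h and 5527 CPM in CCR2 KO 72 h. Ly6c monocytes had 8679 CPM in WT 24 h (196 cells) and 7019 CPM in WT 72 h (21 cells). In each of these states the level was thus lower at 72 h than at 24 h, and CCR2 KO 72 h lay above WT 72 h in the Arg1 and Cd206 states. The paper reported that its Cd206+ and Timp2+ subsets were missing in CCR2 KO mice during resolution. It also reported a nearly complete loss of Arg1+ cells in these mice in the acute phase. The 47 Cd206 and 27 Arg1 cells of CCR2 KO 72 h were picked by score here. Whether they match the subsets of the study was not tested. The Timp2 state of WT 72 h had 4959 CPM, the Cx3cr1 state 8041 CPM in CCR2 KO 24 h and 4560 CPM in WT 72 h, and the Fabp5 state 8788 CPM in WT 24 h and 8909 CPM in CCR2 KO 24 h.

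**Figure D4:**
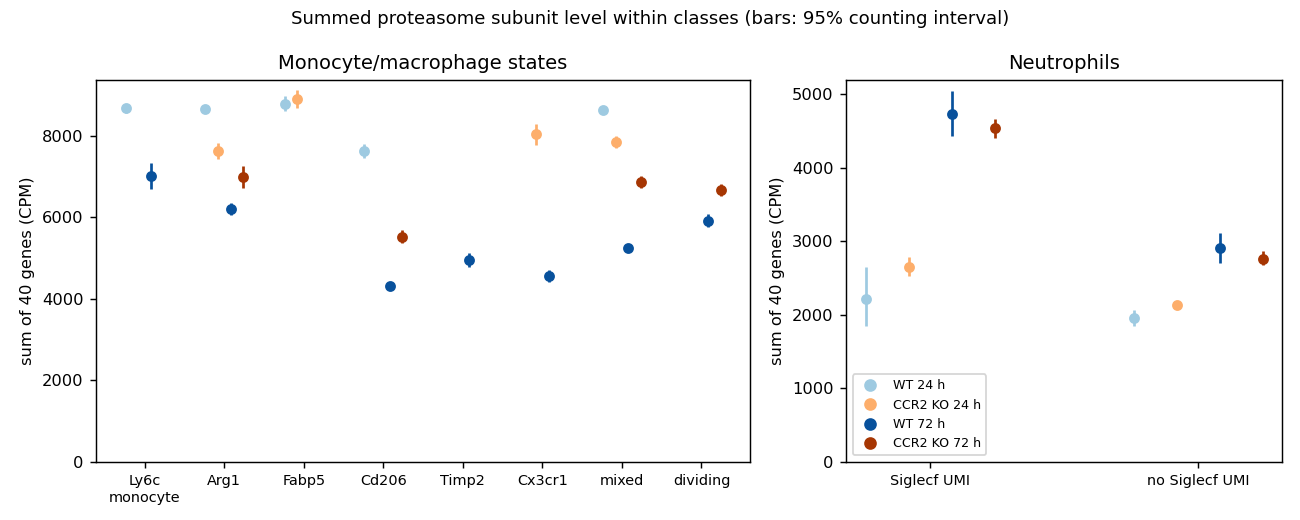
Summed level (CPM) of the 40 genes in Mo/Mφ states and in neutrophils with and without a Siglecf UMI, by library, with 95% intervals of counting error. In the Cd206 state WT had 7631 CPM at 24 h and 4319 CPM at 72 h, while WT neutrophils without a Siglecf UMI had 1954 and 2904 CPM.

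In neutrophils, 14 of 15 core genes and 16 of 17 cap genes with at least 20 CPM had a higher level at 72 h in WT, and 14 of 15 and 17 of 17 in CCR2 KO. The exceptions were Psmb10 in both genotypes and the lid subunit Psmd8 in WT (log2 ratio -0.014), while Psme1 and Psme2 were lower at 72 h in both. With TMM scaling Psma6 was also lower in WT. The summed core level was 1066 CPM in WT 24 h, 1174 CPM in CCR2 KO 24 h, 2197 CPM in WT 72 h and 2071 CPM in CCR2 KO 72 h. The cap sum was 544, 577, 1094 and 1094 CPM in the same order. The activator sum was 330, 413, 315 and 345 CPM, so it did not follow core and cap. In WT, 30 of 36 genes were higher at 72 h by more than 1.5-fold, against 49% of all genes, and 0 were lower by that fold, against 9.39%. In CCR2 KO, 30 of 38 were higher, against 39.8% of all genes, and 1 was lower (Psmb10), against 8.8%. The median log2 ratio was 1.06 in WT and 0.93 in CCR2 KO, with 0.56 and 0.39 over all genes, so the median of all genes was above 0 as well. With TMM scaling the medians were 0.57 and 0.62.

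Psmd3 had the largest ratio in both genotypes, with 12.1 and 48.3 CPM in WT (log2 ratio 1.99, counting interval 0.83 to 3.29) and 19.5 and 53.9 CPM in CCR2 KO (1.47, interval 1.05 to 1.89). The ATPase Psmc4 had 20.2 and 58.8 CPM in WT and 25.1 and 66.6 CPM in CCR2 KO. Psme3 had 14.8 and 46.2 CPM in WT and 17.6 and 35.3 CPM in CCR2 KO. In contrast, Psme2 had 181 and 137 CPM in WT and 213 and 163 CPM in CCR2 KO. Psme1 had 116 and 113 CPM in WT and 160 and 118 CPM in CCR2 KO. Psmb10 had 78.1 and 77.7 CPM in WT and 112 and 74.3 CPM in CCR2 KO. These genes of the inducible form were therefore level or lower at 72 h, while the core active site subunits Psmb5 and Psmb6 were higher (Psmb5 83.5 and 235 CPM in WT, 121 and 201 CPM in CCR2 KO). The WT 24 h neutrophils held 1465 proteasome UMIs in all, 9 of them of Psmd3, so single genes have wide intervals there.

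With genotype as the block, a test added after the data had been seen, edgeR called 5 genes higher at 72 h in neutrophils: Psmd3 (1.09), Psmc4 (0.93), Psmb1 (0.70), Psmb3 (0.65) and Psma7 (0.65). It called 3 lower, Psme2 (-0.93, adjusted p = 0.0191), Psmb10 (-0.90, adjusted p = 0.0309) and Psme1 (-0.81, adjusted p = 0.0298). Of all 7191 genes, 9.43% were called higher and 11.4% lower. DESeq2 called 0 in either direction, and without TMM scaling 28 were higher and 0 lower, against 28.4% and 3.21% of all genes under that scaling. Between genotypes, few proteasome genes of neutrophils passed 1.5-fold. At 24 h 0 of 33 genes were higher in CCR2 KO by more than 1.5-fold and 1 was lower (Psmd6, -0.79), against 16.9% and 7.29% of all genes. At 72 h 2 of 38 were higher (Psmd5, 1.11, and Psme4, 0.59) and 1 was lower (Psmd6, -0.63), against 10.3% and 7.76%, and the counting intervals of these genes include 0. Among the 3 ratios at each end, the intervals excluded 0 at 24 h for Psmb5 (0.53, 0.15 to 0.93), Psmb10 (0.52, 0.12 to 0.94) and Psmb2 (-0.50, -0.94 to -0.03). At 72 h they did so for Psma2 (-0.37, -0.69 to -0.05). The summed level had a log2 ratio of 0.16 (0.08 to 0.24) at 24 h and -0.04 (-0.11 to 0.04) at 72 h.

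Siglecf, a gene known from eosinophils, moved with the time points in the neutrophil class. The paper used it among the markers of its eosinophil cluster. In its WT time course, the paper named eosinophils among the main leukocytes at 72 h. Whether cells of the neutrophil class with Siglecf belong to that cluster was not tested. It had 41.8, 62.4, 387 and 310 CPM in the neutrophils of the 4 libraries. A Siglecf UMI was found in 7.92, 14.3, 43.7 and 49.7% of the neutrophils, with a median of 2060, 2947, 2431.5 and 3413 UMIs per cell, against 0.696, 2.26, 3.78 and 10.3% of the deeper Mo/Mφ cells. The other eosinophil markers were near 0, with 0 to 1 UMIs of Il5ra and 0 of Prg2 per library and 1 to 16 UMIs of Ccr3. In neutrophils without a Siglecf UMI the summed proteasome level was 1954, 2131, 2904 and 2763 CPM in the same order, and in those with one 2216, 2648, 4727 and 4535 CPM. It was thus higher at 72 h in the cells with and in those without a Siglecf UMI, and at 72 h higher in those with one. At this depth a cell that expresses Siglecf can lack a UMI of it, so the split does not separate kinds of cells. The 9 neutrophil markers moved as well: they summed to 120606, 74207, 74098 and 101998 CPM in the class. At 72 h they summed to 43873 CPM in the cells with a Siglecf UMI against 96503 CPM in those without one in WT, and to 46029 against 150562 CPM in CCR2 KO. Their part in the share taken by proteasome genes was not tested. The 10 Mo/Mφ markers together had 415, 420, 393 and 378 CPM in neutrophils, against 6660 to 13019 CPM in the Mo/Mφ class. Each library was also split at the median depth of its class. The summed level was 1930, 2112, 3510 and 3298 CPM in the deeper and 2078, 2381, 4000 and 4283 CPM in the shallower neutrophils. In the Mo/Mφ class it was 8874, 8284, 5037 and 6869 CPM in the deeper and 8021, 7201, 4363 and 5371 CPM in the shallower cells. The median depth of that class was 14647, 16228, 14212 and 17082 UMIs per cell. The part of depth in the results was not tested.

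The direction of time thus differed between the classes. A term for class by time, added after the data had been seen, compared the change from 24 h to 72 h in neutrophils with that in the Mo/Mφ class over the 8 sums of both classes, with the library as a block and 2 residual degrees of freedom. Of 39 genes tested, edgeR called 21 more positive in neutrophils, against 10.1% of 10534 genes, and 0 more negative, against 8.65%. They were 9 of 15 core genes, 11 of 17 cap genes, 0 of 3 chaperones and 1 of 4 activators (Psme3). The median difference of the log2 changes was 0.99 over the 39 genes and 0.03 over all genes. Psmd3 had the largest difference (2.04, SE 0.39, adjusted p = 2.34e-05), followed by Psmc4 (1.85, adjusted p = 6.65e-05), Psmc5 (1.5), Psmb6 (1.46), Psmd11 (1.40) and Psmb5 (1.39). The genes of the inducible form did not pass, with -0.50 for Psme1, 0.01 for Psme2 and -0.38 for Psmb10. None was more negative at an unadjusted p under 0.05, and DESeq2 called 10 more positive and 0 more negative. Without TMM scaling 33 were more positive and 0 more negative, against 19.5% and 3.72% of all genes. The count was 7 without WT 24 h, 9 without CCR2 KO 24 h, 7 without WT 72 h and 17 without CCR2 KO 72 h, and Psmd3, Psmc4, Psmc5, Psmb6 and Psmd11 were among those called each time.

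**Figure D5:**
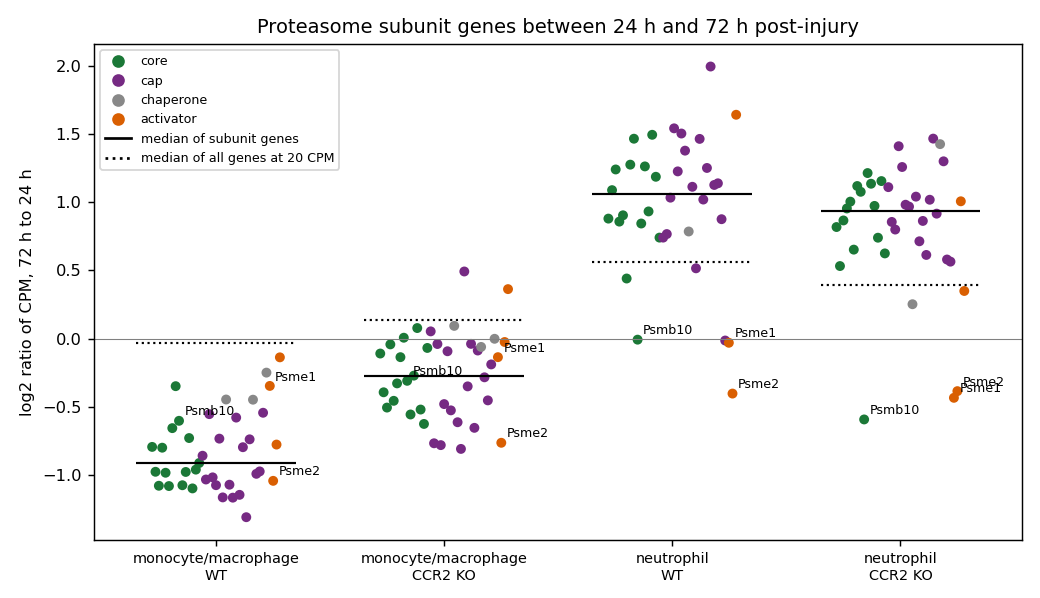
Log2 ratio of CPM at 72 h against 24 h for each proteasome gene with at least 20 CPM, by class and genotype, coloured by subunit group. In the Mo/Mφ class the median was -0.91 in WT and -0.27 in CCR2 KO, in neutrophils 1.06 and 0.93, and Psme1, Psme2 and Psmb10 lay at or below 0 in neutrophils.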

How the data were processed

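CD45+ cells of the small intestinal muscularis were profiled by 10x 3' single cell RNA sequencing in 4 libraries, 1 per genotype and time. Per the submitters' processing notes, the authors used Cell Ranger 3.0.2 and Seurat, with the genome build mm10 (GRCm38). The files deposited by the authors hold raw UMI counts per gene and cell, with no normalization. All 5811 cells passed the study's filter (at least 200 genes, at most 10% mitochondrial UMIs), which was applied here again.

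Each cell was assigned to the class whose top 4 markers, each on a log scale per 10000 UMIs and divided by its 99th percentile, gave the highest mean, where at least 3 markers of the class had a UMI and the next class was lower by a ratio of 1.3 or more. There were 12 marker lists, and 5 classes were used. Since the names were rebuilt by this gate, they may differ from those of the study. Counts were summed per class and library where a class had at least 20 cells (10 for splits of the Mo/Mφ class). Sums were tested with edgeR 4.0.16 (limma 3.58.1, R 4.3.3; glmQLFit and glmQLFTest, TMM scaling, library as block, all classes in 1 fit, Benjamini-Hochberg adjustment over all genes tested, threshold 0.05). The block takes out differences between libraries, so the spread is how a class difference varies over libraries that differ in genotype or time. Each library holds a pool of mice, so the spread between mice or between repeated libraries of a group was not measured. Ratios between single libraries used genes with at least 20 CPM and a fold of 1.5, with exact 95% intervals that cover counting error only. No p-value was given for genotype. DESeq2 1.42.0, no TMM scaling, no filter on low counts, thinning to 1000 UMIs, at most 5% mitochondrial UMIs, a stricter gate and leaving out each library were the alternatives.

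In simulated counts the class test of neutrophils against the Mo/Mφ class recovered 28, 92, 100 and 100% of genes changed 1.5-, 2-, 3- and 4-fold (9478 genes). The interferon test recovered 16, 72, 100 and 100% (9612 genes), the division test 10, 46, 86 and 98% (8843 genes) and the class by time test 0, 18, 58 and 86% (10178 genes). The simulations gave all genes the same spread and changed only genes above a minimum expected count in the smallest sum. Recovery was not simulated for the contrasts with lymphoid cells and DCs. Scrublet (in scanpy 1.11.5) called 4 of 5811 cells doublets and so did not work. No doublets were removed, and removing the 366 cells with the highest 5% of scores was added after the data had been seen, as were the tests of time. The genes and gene lists were chosen with earlier results of these data known. Some genes of the other pathway lists are not reported here. Single genes were described for the largest called differences, the 3 ratios at each end, and 14 genes in every comparison. Python 3.11.15, numpy 2.4.6, scipy 1.17.1, pandas 2.3.3 and matplotlib 3.10.9 were used.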

Additional observations from a re-analysis of the deposited data

Results flagged for a closer look

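The change from 24 h to 72 h differed between neutrophils and the Mo/Mφ class by a test of the difference itself: edgeR called 21 of 39 proteasome genes more positive in neutrophils and 0 more negative. The test was added after the data had been seen, and time is replicated in it only over the 2 genotypes. The count ranged from 7 (without WT 24 h or without WT 72 h) to 33 (without TMM scaling) over the alternatives, and was 0 in the negative direction in each of them. Psmd3, Psmc4, Psmb6 and Psmd11 were called under every alternative run, and Psmc5 under every one except thinning to 1000 UMIs. Siglecf in the neutrophil class moved with time as well, and its part in the difference was not tested beyond the levels given with and without a Siglecf UMI.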

How the results depend on the processing

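No paired analysis was possible because each group of genotype and time has 1 library, so that these groups share fewer than 2 replicate numbers. Comparisons of classes had the library as a block, and the added tests of time within a class the genotype. Removing the doublets called by Scrublet gave no separate value, since it called 4 cells, and leaving out a library could not be fitted for the dividing cells, which were tested in the 72 h libraries only. The count of 32 genes higher in the Mo/Mφ class than in neutrophils ranged from 24 (without CCR2 KO 24 h) to 36 (without TMM scaling), with 0 lower throughout. Among counts and levels that answer a comparison, 266 values under an alternative stayed within the limits set (1.5 times for a count) and 60 moved. Among single genes, 378 kept their direction and side of the threshold, 46 lost and 1 gained significance, 20 untested medians moved and 14 values changed sign. The causes were not tested.

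Against lymphoid cells, 1 gene was higher without TMM scaling (with 2 lower), at most 5% mitochondrial UMIs and thinning, 7 with the stricter gate, and 1 to 6 when a library was left out. In DCs, 1 was higher after thinning and 0 to 2 without a library. In interferon-high cells, 0 were higher after thinning and 1 to 3 without a library. The median core level of DCs was 4383 CPM from sums and 4217 CPM as a mean over cells.

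For single library ratios in the Mo/Mφ class, the count higher in CCR2 KO at 72 h was 12, and it was 0 at a fold of 2 and 21 at most 5% mitochondrial UMIs. The count lower at 72 h in WT went from 30 to 13 at a fold of 2. In CCR2 KO it went from 7 to 14 with TMM scaling, 11 with the mean over cells, 0 at a fold of 2 and 3 at most 5% mitochondrial UMIs, and 1 was higher with the mean over cells. In neutrophils, the count higher in CCR2 KO at 24 h went from 0 to 1 with TMM scaling, with no minimum level and without the highest Scrublet scores, and to 4 with the mean over cells. The count lower went from 1 to 2 with TMM scaling and 0 at a fold of 2. At 72 h the count higher went from 2 to 1 at a fold of 2, with no minimum level, at most 5% mitochondrial UMIs, without the highest Scrublet scores and with the stricter gate. The count lower went from 1 to 0 at a fold of 2 and with no minimum level. The median of -0.0016 turned to 0.035 with TMM scaling, 0.066 with the mean over cells, 0.0022 at most 5% mitochondrial UMIs and 0.018 without the highest Scrublet scores. Over time in WT, the count higher went from 30 to 17 and the count lower from 0 to 1 with TMM scaling. In CCR2 KO the count higher went from 30 to 15 at a fold of 2, and the count lower from 1 to 3 with TMM scaling and to 0 with the mean over cells, at a fold of 2 and with no minimum level.

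For the tests added after the data had been seen, the count of 21 in the class by time test was 10 with DESeq2, 33 without TMM scaling, 10 at most 5% mitochondrial UMIs, 11 after thinning and 7 to 17 without a library, where the lone library left at a time is assumed to vary like the others. The count of 10 lower at 72 h in the Mo/Mφ class was 4 without TMM scaling, 19 without the filter, 0 at most 5% mitochondrial UMIs, 18 without the highest Scrublet scores and 1 after thinning. The 5 genes higher in neutrophils were 0 with DESeq2, 28 without TMM scaling, 2 without the filter and 10 after thinning, and the 3 lower were 0 with DESeq2 and without TMM scaling.

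Values that changed sign in the comparison of the Mo/Mφ class with neutrophils were those of Psmb5 without WT 24 h (-0.083, in a range up to 0.48 over the libraries left out) and of Psmd4 without TMM scaling (0.42), without the filter (0.057), after thinning (0.25), without WT 72 h (0.14) and without CCR2 KO 72 h (0.041, in a range from -0.20 to 0.14). In the class by time test they were those of Psmb10 without TMM scaling (0.11) and without CCR2 KO 24 h (0.12, in a range from -0.72), and of Psme2 with DESeq2 (-0.046) and at most 5% mitochondrial UMIs (-0.18). None of these had passed the threshold.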

Other observations

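The balance of the PA28 genes differed between classes and times. Of the UMIs of Psme1 and Psme2 together, Psme2 made up 47.9, 51.7, 36.2 and 40.9% in the Mo/Mφ class of the 4 libraries (WT and CCR2 KO at 24 h, then WT and CCR2 KO at 72 h), and 60.9, 57.1, 54.6 and 58.0% in neutrophils. In DCs it made up 52.9% in CCR2 KO 24 h, 37.3% in WT 72 h and 37.2% in CCR2 KO 72 h, and in lymphoid cells 46.5, 41.2 and 42.1%. The share was thus lower at 72 h than at 24 h in the Mo/Mφ class of both genotypes, and neutrophils had the highest share in each library. Reads shared with the copy Psme2b make these shares uncertain, and no test was made.

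In the B cells of CCR2 KO 24 h, Psme1 had 366 CPM, Psme2 172 CPM and Psmb10 138 CPM, all lower than in the lymphoid class of the same library (546, 475 and 336 CPM). B cells were measured in 1 library only, and their values have no replicate check.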
